A study of Homo sapiens with 6 samples.

Results

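The genes described here are 33 genes of homologous recombination and of the Fanconi anaemia pathway, chosen by their symbols, and all 33 were found among the 59653 genes of the count table. They were measured by RNA sequencing in SK-OV3, an established human ovarian cancer cell line that the labels give as wildtype. RNA was taken 48 h after transfection with 50 nM siRNA, from 3 libraries treated with a control siRNA pool (siControl) and 3 treated with siRNAs against the long non-coding RNA PVT1 (siPVT1). Nothing in the labels says that the replicates were separate cultures, so p-values measure only the spread between these libraries. The comparison asks how the transcripts of DNA break repair stood after PVT1 was lowered.

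Homologous recombination repairs a double-strand break by copying the sister chromatid. The MRE11, RAD50 and NBN complex senses the end, the kinases ATM and ATR signal, nucleases trim one strand, and BRCA1, PALB2 and BRCA2 bring the strand-exchange recombinase onto the exposed strand. The Fanconi pathway unhooks crosslinks between the strands: a core complex, with UBE2T, attaches ubiquitin to FANCD2 and FANCI, and recombination completes the repair. Many of these genes are transcribed mostly in cycling cells, and ovarian carcinomas often lose BRCA1 or BRCA2. In cancer cell lines kept at low oxygen, transcripts of several recombination genes, BRCA1 among them, are known to decline.

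In siPVT1, 16 of the 33 genes were lower, 4 were higher and 13 did not pass the test, edgeR's quasi-likelihood test over 19008 genes at a Benjamini-Hochberg threshold of 0.05. Among all genes tested, 28.4% were lower and 29.5% were higher by the same rule. The genes that fell included the break sensor (MRE11, RAD50 and NBN), the kinase ATR, the resection factors RBBP8 and EXO1, BRCA1, PALB2 and BRIP1, and 4 of the 8 Fanconi core subunits. Those that rose were the kinase ATM, the recombinase paralog RAD51B, the ubiquitin-conjugating enzyme UBE2T and its substrate FANCD2. The changes were mostly small, with a median log2 fold change of -0.32 against 0.0014 over all genes tested. Scaling by total count in place of TMM moved the median of all genes tested to -0.15, and 20 members were then lower and 3 higher, against 36.2% and 23.6% of all genes tested. Only RBBP8 also changed by at least 2-fold, the size used here to call a gene differentially expressed, and its log2 fold change was -0.92 without siPVT1 replicate 1. No member did so upward, while 9.64% of all genes tested were differentially expressed lower and 11.8% higher.

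The total count of a library ranged from 28383171 to 35059576. PVT1 itself had 3298, 4090 and 3377 normalized counts in siControl and 2350, 2111 and 2062 in siPVT1 (log2 fold change -0.72, SE 0.097, adjusted p = 0.000342), so the target was lowered but not removed. A normalized count is a library's count scaled by its TMM-adjusted size. Of 9 markers of epithelial ovarian carcinoma, 3 were lower and 4 higher, with log2 fold changes from -1.01 to 2.30. KRT8, KRT18, KRT7 and PAX8 were abundant in every library. The levels of EPCAM, KRT19, MUC16, WT1 and ERBB2 are not given here. The leukocyte markers PTPRC and CD3E lay at 0 to 2.02 normalized counts, and of the 2 leukocyte markers tested 1 was lower. LYZ was highest in replicate 2 of both groups, at 248.5 and 86.3 normalized counts. All 3 endothelial markers tested and 3 of the 4 fibroblast markers tested were higher in siPVT1, CDH5 from a mean of 1998 to between 8260 and 10470 normalized counts. Over all genes tested 28.4% were lower and 29.5% higher. The part of these markers in the values of the repair genes was not tested. In bulk RNA, fewer cells that express a gene and less RNA in each cell cannot be told apart.

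The promoters below are shown because E2F factors and the RB family control many repair genes through sequences close to the start site. Each window runs from 250 bases before to 50 bases after the start, 5′ to 3′ on the strand of the gene, and comes from RefSeq on GRCh38.p14, whose table held 30 of the 33 members. The letters searched, on both strands, were TTTCCCGC, TTTGGCGC, TTTCGCGC and TTTGCCGC for E2F, and a match is in capitals as it reads on this strand. The windows are those of EXO1 at chr1:241847954-241848253 (plus strand), XRCC2 at chr7:152676092-152676391 (minus), FANCA at chr16:89816598-89816897 (minus), FANCC at chr9:95317660-95317959 (minus) and FANCD2 at chr3:10026187-10026486 (plus).
EXO1: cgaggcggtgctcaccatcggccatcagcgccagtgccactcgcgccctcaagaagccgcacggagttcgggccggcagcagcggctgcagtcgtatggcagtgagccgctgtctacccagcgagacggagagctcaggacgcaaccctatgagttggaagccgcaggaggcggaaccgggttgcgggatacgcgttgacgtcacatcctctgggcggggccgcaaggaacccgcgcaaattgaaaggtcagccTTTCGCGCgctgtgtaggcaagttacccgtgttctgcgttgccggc
XRCC2: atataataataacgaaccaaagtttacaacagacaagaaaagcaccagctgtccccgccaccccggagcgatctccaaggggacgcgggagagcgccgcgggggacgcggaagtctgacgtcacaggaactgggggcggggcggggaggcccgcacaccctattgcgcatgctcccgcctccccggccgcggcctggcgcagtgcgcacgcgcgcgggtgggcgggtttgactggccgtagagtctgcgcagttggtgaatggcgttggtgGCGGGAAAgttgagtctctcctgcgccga
FANCA: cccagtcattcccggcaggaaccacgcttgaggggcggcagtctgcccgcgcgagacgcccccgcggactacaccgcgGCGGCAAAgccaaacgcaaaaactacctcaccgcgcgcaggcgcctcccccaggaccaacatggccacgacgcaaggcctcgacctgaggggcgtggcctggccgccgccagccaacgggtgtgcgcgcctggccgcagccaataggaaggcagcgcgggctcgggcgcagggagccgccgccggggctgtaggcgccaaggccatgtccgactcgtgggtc
FANCC: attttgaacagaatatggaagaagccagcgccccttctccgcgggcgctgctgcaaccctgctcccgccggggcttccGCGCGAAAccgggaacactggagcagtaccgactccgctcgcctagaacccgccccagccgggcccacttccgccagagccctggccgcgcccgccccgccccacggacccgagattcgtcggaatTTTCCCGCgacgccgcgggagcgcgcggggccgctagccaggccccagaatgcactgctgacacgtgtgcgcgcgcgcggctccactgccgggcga
FANCD2: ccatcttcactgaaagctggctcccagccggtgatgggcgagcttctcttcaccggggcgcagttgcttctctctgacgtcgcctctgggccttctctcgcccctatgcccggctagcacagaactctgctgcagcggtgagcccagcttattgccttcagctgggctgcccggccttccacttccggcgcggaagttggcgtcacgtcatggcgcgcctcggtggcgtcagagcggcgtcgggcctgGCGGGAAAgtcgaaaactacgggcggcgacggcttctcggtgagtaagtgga

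These 5 windows were the members' windows that held an E2F match, 5 of 30 or 16.67%, against 3.325% of all 27305 promoters in the table and 5.193% of the 11862 promoters of tested genes. The 4 letter runs were counted as 1 motif, and FANCC held 2 matches. EXO1, XRCC2, FANCA and FANCC were lower in siPVT1 and FANCD2 was higher, so that 4 of 14 lower members with a window and 1 of 16 other members held a match. This split is fragile, as the calls of XRCC2 and FANCA were lost without any library other than siPVT1 replicate 3. Other letters were at shares near the background. The CCAAT box was in 12 windows (of 30, against 36.81% of tested promoters), the cell cycle element TTTGAA in 4 (13.33%, against 10.13%) and the core of the hypoxia response element, ACGTG, in 8 (26.67%, against 26.02%). The tabled windows of BRCA1 and RAD51B lay more than 1000 bases from the start of the MANE Select transcript, the reference isoform of a gene. Without them the E2F letters were in 5 of 28 windows (17.86%), in 4 of 13 lower and 1 of 15 other members. A match is a run of letters and not a site in use.

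BRCA1 needed its own window, because the one in the table lay 44963 bases from that start, while the one of RAD51B lay 3762 bases away. The window around the MANE Select start, chr17:43125315-43125614 on the minus strand, was read from GRCh38. It is shown because BRCA1 and its neighbour NBR2 start within it, on opposite strands.
BRCA1: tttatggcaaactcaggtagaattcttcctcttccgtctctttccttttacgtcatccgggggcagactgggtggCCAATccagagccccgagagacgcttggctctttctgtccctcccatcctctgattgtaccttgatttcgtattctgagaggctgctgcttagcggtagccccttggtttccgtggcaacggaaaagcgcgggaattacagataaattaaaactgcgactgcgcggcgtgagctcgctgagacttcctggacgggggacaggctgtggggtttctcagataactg

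The only letters of the 4 searches found in it were a CCAAT box, in capitals, 175 bases before the start. NBR2, a long non-coding RNA gene, starts 187 bases from BRCA1 and is read the other way.

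In the plot of the members by library, the siControl libraries lay close together and the siPVT1 libraries lay apart. The median coefficient of variation of a member was 3.31% in siControl and 21.2% in siPVT1, where all genes tested had 6.90% and 12.97%. Replicate 3 was the highest siPVT1 library in 27 members, or 81.8%, against 41.3% of all genes tested. Replicate 1 was the lowest in 26 members, or 78.8%, against 37.9%. Relative to siControl, the median of the members was -0.58, -0.38 and -0.17 on the log2 scale in siPVT1 replicates 1, 2 and 3, with all genes tested between 0.0076 and 0.014. Replicate 1 lay below every siControl library in 28 members, replicate 2 in 23 and replicate 3 in 18. Above every siControl library, replicate 1 lay in 4 members, replicate 2 in 8 and replicate 3 in 13. These counts were not made over all genes tested. PVT1 had 2350, 2111 and 2062 normalized counts in siPVT1 replicates 1, 2 and 3, and its part in this order was not tested.

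**Figure D1:**
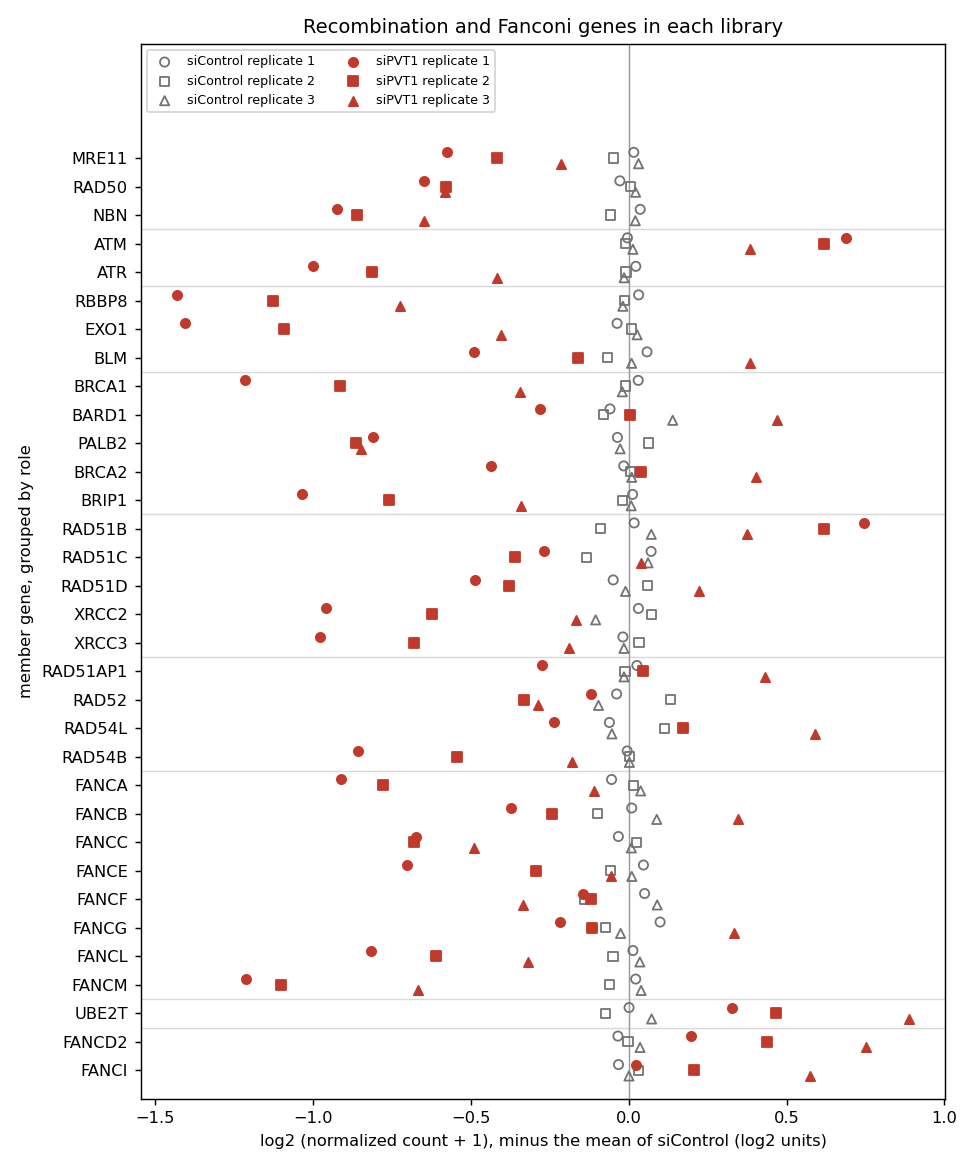
Each row is 1 of the 33 members, grouped by role, and each point is 1 library, as log2 of the normalized count plus 1 minus the siControl mean (open grey, siControl; filled red, siPVT1; circle, square and triangle for replicates 1, 2 and 3). The grey points stay near 0, while the red triangles lie to the right of the other red points in 27 rows.

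Counted by library, 17 members had every siPVT1 value below every siControl value and 4 had every siPVT1 value above, while 12 overlapped. Of all genes tested, 32.3% were separated downward and 33.2% upward. Without siPVT1 replicate 3, 21 members were lower and 4 higher, against 33.4% of 18556 genes lower and 30.9% higher. BRCA1, RBBP8, EXO1 and FANCM were then differentially expressed, 4 members against 11.2% of genes. RAD51C, RAD51D, BLM, FANCB and FANCE, which did not pass with all 6 libraries, were lower without that one.

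All 3 subunits of the break sensor fell, where 28.4% of all genes tested were lower. MRE11 (chr11:94415570-94493885, minus strand of GRCh38), the nuclease, had 1618, 1548 and 1635 normalized counts in siControl and 1072, 1198 and 1377 in siPVT1 (log2 fold change -0.40, SE 0.094, adjusted p = 0.00696). RAD50 (chr5:132556019-132646349, plus strand), the ATPase that tethers the ends, had 3064, 3137 and 3172 against 1993, 2091 and 2087 (-0.60, SE 0.056, adjusted p = 4.72e-05). NBN, the subunit that recruits ATM, had 7156, 6703 and 7079 against 3676, 3846 and 4452 (-0.81, SE 0.080, adjusted p = 6.85e-05). In none of the 3 did the groups overlap, and the siPVT1 libraries lay closer together for RAD50 than for the other two. Of the RAD50 transcript, 91.0% lies in exons of an overlapping gene, mostly a readthrough gene on the same strand, so that the counts of the pair are uncertain.

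The apical kinases moved in opposite directions. ATM (chr11:108223044-108369102, plus strand), which responds to double-strand breaks, rose from 4881, 4862 and 4940 normalized counts in siControl to 7881, 7513 and 6394 in siPVT1 (log2 fold change 0.57, SE 0.081, adjusted p = 0.000483). ATR (chr3:142449007-142578733, minus strand), which responds to exposed single strands and stalled forks, fell from 6248, 6115 and 6089 to 3074, 3501 and 4602 (-0.72, SE 0.13, adjusted p = 0.00184). Neither overlapped between the groups. Taken within each library, the ratio of ATM to ATR counts was 0.781, 0.795 and 0.811 in siControl and 2.56, 2.15 and 1.39 in siPVT1. This ratio and 3 others given below were chosen after the values were seen, and an exact two-sided permutation test of 3 libraries against 3 cannot go below the 0.1 that each of the 4 gave.

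End resection held the member that changed the most. RBBP8 (chr18:22798261-23026488, plus strand), which encodes CtIP and starts resection with MRE11, had 2007, 1946 and 1939 normalized counts in siControl and 728, 899 and 1188 in siPVT1 (log2 fold change -1.06, SE 0.15, adjusted p = 0.000527). EXO1 (chr1:241847967-241895148, plus strand), an exonuclease that extends the resected tract, had 825, 852 and 862 against 318, 397 and 639 (-0.90, SE 0.22, adjusted p = 0.00776). Both were separated between the groups in every library. BLM, a helicase of long-range resection, did not pass (-0.041, SE 0.19, adjusted p = 0.868), since its siPVT1 libraries, at 559, 703 and 1025, lay on both sides of the siControl values of 750 to 818.

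Among BRCA1, BRCA2 and their partners, 3 of 5 fell, where 28.4% of all genes tested were lower. BRCA1 (chr17:43044295-43170245, minus strand), a ubiquitin ligase that promotes resection and recruits PALB2, had 2566, 2495 and 2478 normalized counts in siControl and 1082, 1332 and 1982 in siPVT1 (log2 fold change -0.78, SE 0.19, adjusted p = 0.00794). PALB2 (chr16:23603160-23641321, minus strand), the bridge from BRCA1 to BRCA2, had 641, 686 and 645 against 374, 361 and 365 (-0.84, SE 0.075, adjusted p = 3.81e-05). BRIP1 (chr17:61679139-61863559, minus strand), a helicase that binds BRCA1, had 992, 970 and 989 against 480, 581 and 776 (-0.68, SE 0.15, adjusted p = 0.00556). The groups were separate for all 3, with BRCA1 and BRIP1 spread widely in siPVT1 and PALB2 not.

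The remaining pair of this group did not pass. BARD1 (chr2:214725646-214809683, minus strand), the partner that BRCA1 needs for its ligase activity, had 561, 553 and 644 normalized counts in siControl and 481, 586 and 810 in siPVT1 (log2 fold change 0.097, SE 0.18, adjusted p = 0.664). BRCA2 (chr13:32315086-32400268, plus strand), which loads the recombinase, had 2073, 2104 and 2110 against 1550, 2154 and 2770 (0.044, SE 0.18, adjusted p = 0.849). For both genes siPVT1 replicate 1 lay below all siControl libraries and replicate 3 above them. The ratio of BRCA1 to BARD1 counts within a library was 4.58, 4.52 and 3.85 in siControl and 2.25, 2.27 and 2.45 in siPVT1, a mean of 4.31 ± 0.40 against 2.32 ± 0.11 (SD, n = 3 libraries a group). Across the siPVT1 libraries this ratio varied less than either gene alone.

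The 5 recombinase paralogs, which stabilise the recombinase filament, were divided. XRCC2 had 262, 270 and 238 normalized counts in siControl and 131, 166 and 228 in siPVT1 (log2 fold change -0.54, SE 0.18, adjusted p = 0.034). XRCC3 had 574, 595 and 575.5 against 295, 363 and 510 (-0.57, SE 0.18, adjusted p = 0.0222). Both calls were lost when single libraries were left out, for XRCC2 any library but siPVT1 replicate 3 (adjusted p up to 0.102) and for XRCC3 any siControl library or siPVT1 replicate 2 (up to 0.0765). RAD51B (chr14:67819779-68730218, plus strand) was the only paralog to rise, from 175, 163 and 182 to 291, 267 and 225 (0.59, SE 0.12, adjusted p = 0.00347). RAD51C (-0.19, SE 0.11, adjusted p = 0.196) and RAD51D (-0.18, SE 0.17, adjusted p = 0.42) did not pass. RAD51B and RAD51C sit in the same complex, and the ratio of their counts was 0.176 ± 0.0060 in siControl and 0.309 ± 0.075 in siPVT1 (SD, n = 3).

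Of the 4 genes that help strand exchange and annealing, RAD54B alone passed, where 28.4% of all genes tested were lower and 29.5% higher. RAD54B, a DNA translocase, had 954, 959 and 959 normalized counts in siControl and 528, 657 and 846 in siPVT1 (log2 fold change -0.50, SE 0.15, adjusted p = 0.021), and the call was lost without any one siControl library or siPVT1 replicate 2 (adjusted p up to 0.0669). FSBP, on the same strand, shares 65.5% of its transcript. RAD52, which anneals single strands, had 508, 572 and 488 against 480, 414 and 427, and its groups were separate although the test was not passed (-0.25, SE 0.097, adjusted p = 0.0582). The other translocase, RAD54L, and RAD51AP1, which stimulates strand invasion, overlapped between the groups (0.22, adjusted p = 0.352, and 0.10, adjusted p = 0.615).

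In the Fanconi core complex, 4 of 8 subunits fell and 4 did not pass, where 28.4% of all genes tested were lower. FANCM (chr14:45135930-45200890, plus strand), the translocase that anchors the complex to DNA, had 816, 770 and 826 normalized counts in siControl and 346, 374 and 505 in siPVT1 (log2 fold change -0.97, SE 0.14, adjusted p = 0.000449). FANCL (chr2:58159243-58241410, minus strand), the ubiquitin ligase subunit, had 448, 429 and 455 against 252, 291 and 356 (-0.57, SE 0.13, adjusted p = 0.00524). FANCC (chr9:95099054-95426796, minus strand), a subunit that docks FANCE, had 628, 653 and 646 against 402, 400 and 457 (-0.61, SE 0.083, adjusted p = 0.000362). These 3 were separate in every library. FANCA, the partner of FANCG in the complex, had 827, 869 and 882 against 457, 500 and 797 (-0.55, SE 0.19, adjusted p = 0.0349), a call lost without any library other than siPVT1 replicate 3 (adjusted p up to 0.116). FANCB, FANCE, FANCF and FANCG did not pass, with log2 fold changes from -0.32 for FANCE to 0.021 for FANCG and adjusted p-values from 0.115 to 0.91.

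UBE2T and FANCD2, of the ubiquitin step, were higher, unlike the ligase subunit FANCL. UBE2T (chr1:202331544-202341984, minus strand), the conjugating enzyme that works with FANCL, had 560, 531 and 588 normalized counts in siControl and 702, 774 and 1035 in siPVT1 (log2 fold change 0.58, SE 0.14, adjusted p = 0.00777). FANCD2 (chr3:10026370-10101932, plus strand) had 1204, 1230 and 1264 against 1412, 1668 and 2074 (0.48, SE 0.13, adjusted p = 0.0119), a call that was lost when libraries were scaled by their total count (0.33, adjusted p = 0.055). FANCI, its partner, had 1511, 1579 and 1546 against 1570, 1782 and 2304 and did not pass (0.29, SE 0.13, adjusted p = 0.087). In these 3 genes siPVT1 replicate 3 was again the highest library, here farthest from siControl. The ratio of FANCD2 to FANCM counts, substrate to anchor, was 1.53 ± 0.062 in siControl and 4.21 ± 0.22 in siPVT1 (SD, n = 3).

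**Figure D2:**
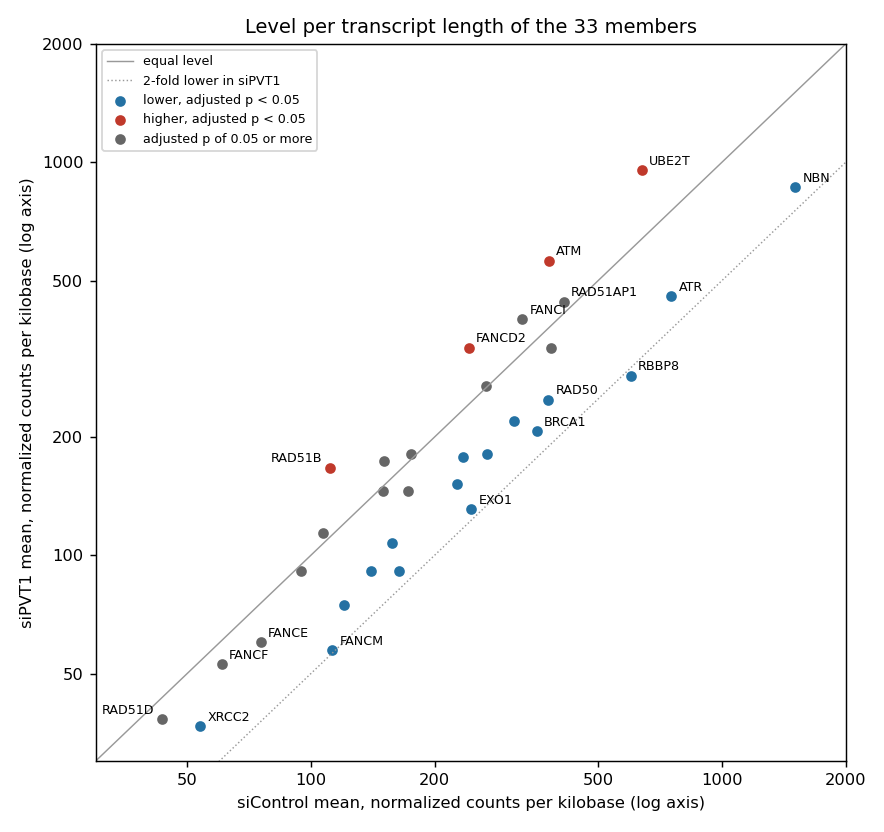
Mean normalized counts per kilobase of the MANE Select transcript in siControl (x axis) and siPVT1 (y axis), both on log axes, for the 33 members (blue, lower; red, higher; grey, not passed at an adjusted p-value of 0.05). NBN and ATR lie below the line of equal level at the upper end and RAD51D and XRCC2 at the lower end, while UBE2T and ATM lie above the line.

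Levels of different genes were compared per kilobase of transcript, because long transcripts collect more reads. In siControl, NBN stood highest at 1510 normalized counts per kilobase, followed by ATR at 754, UBE2T at 638 and RBBP8 at 600. In siPVT1 UBE2T was highest at 953, NBN had 864, and RBBP8 had come down to 287. RAD51D and XRCC2, which work in the same paralog complex, were lowest in siControl, at 43.4 and 53.8, and had 38.3 and 36.7 in siPVT1. The rank of RAD51D rests on its MANE Select transcript of 9966 bases, and the isoform expressed was not examined. BRCA1 exceeded BRCA2 in siControl, 355 against 175, and in siPVT1 the means were 207 and 181, with the siPVT1 libraries of both genes widely spread.

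Several members share a start region with a gene read the other way, and 9 such neighbours within 1000 bases were tested. NBR2 had a log2 fold change of -0.72 (SE 0.11, adjusted p = 0.000766) beside BRCA1 at -0.78. DCTN5, 156 bases from PALB2, had -0.52 (SE 0.096, adjusted p = 0.00183), and ANKRD49, 140 bases from MRE11, had -0.67 (SE 0.10, adjusted p = 0.000698). In these 3 pairs both genes fell.

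In the other pairs, the member and its neighbour did not both pass in the same direction. ZFYVE21, 359 bases from XRCC3, rose by 0.67 on the log2 scale (SE 0.066, adjusted p = 6.55e-05) where XRCC3 fell. NPAT, a histone gene activator 429 bases from ATM, did not pass (0.10, SE 0.070, adjusted p = 0.243) where ATM rose. TEX14, 557 bases from RAD51C, had -4.84 (SE 0.31, adjusted p = 7.98e-06) and C12orf4, 421 bases from RAD51AP1, had -1.12 (SE 0.15, adjusted p = 0.000293), while neither member passed. MOSPD2, 352 bases from FANCB, had 0.29 (SE 0.078, adjusted p = 0.0127), and SNHG31, 498 bases from BARD1, did not pass (-0.092, SE 0.38, adjusted p = 0.864). The strand setting of the counting is not given in the sources used here, so genes that overlap on opposite strands are uncertain. Such overlaps cover 34.2% of the XRCC3 transcript (KLC1), 27.4% of FANCA (ZNF276), 27.3% of FANCL (VRK2, itself at -0.95) and 26.2% of RAD54L (LRRC41).

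**Figure D3:**
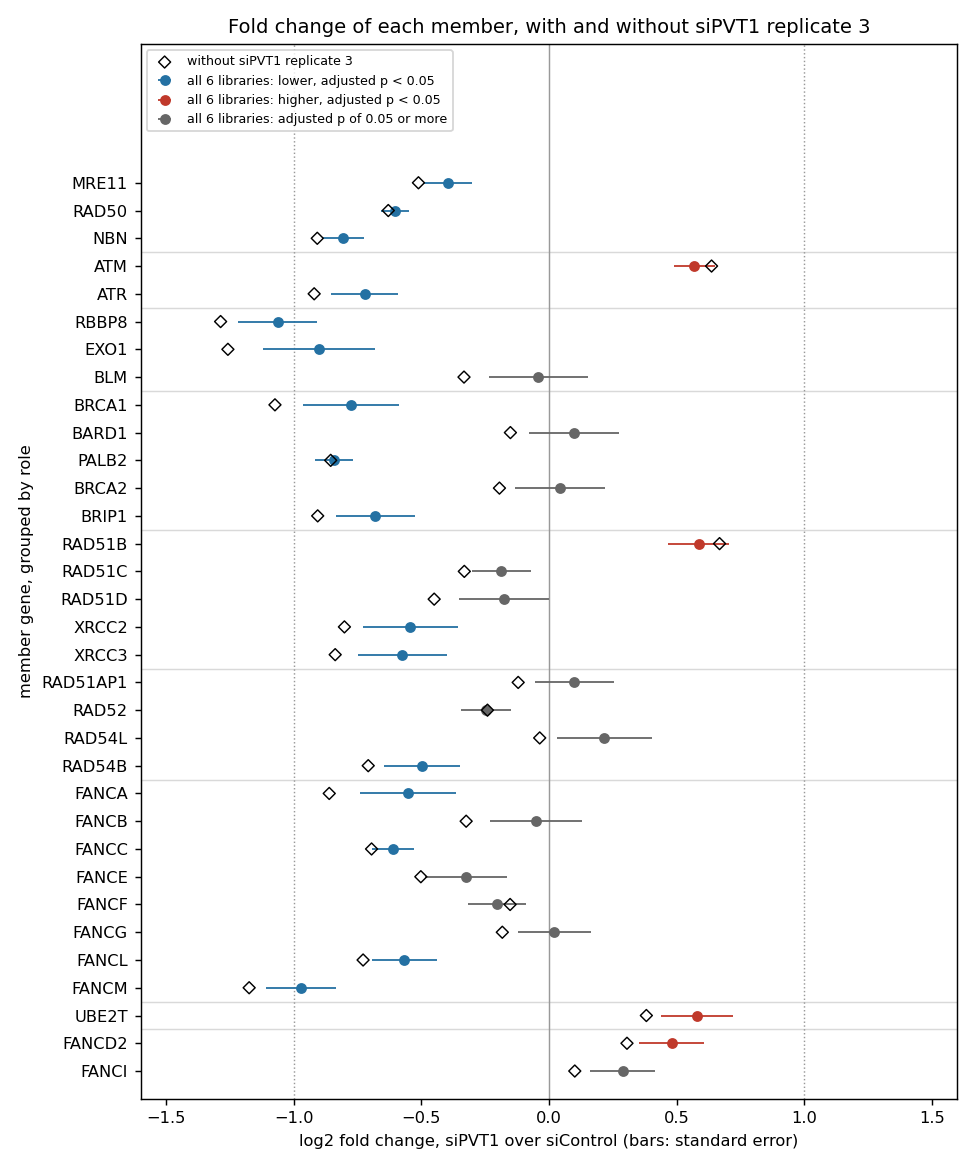
Log2 fold change of siPVT1 over siControl for each member with all 6 libraries (filled points, bars are standard errors) and without siPVT1 replicate 3 (open diamonds), where dotted lines mark a 2-fold change. With all libraries RBBP8 alone lies beyond the dotted line, and without that library BRCA1, EXO1 and FANCM lie there too.

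Further genes of the pathway came from a list, of which 52 were tested. Of these, 21 were lower (40.4%, against 28.4% of all genes tested), 10 higher (19.2%, against 29.5%) and 21 did not pass, with a median of -0.23. Scaled by total count, 27 were lower and 7 higher (51.9% and 13.5%, against 36.2% and 23.6% of all genes tested). FAAP100, a core complex subunit that holds FANCB and FANCL together, fell from a mean of 628 to 281 normalized counts (-1.16, SE 0.076, adjusted p = 8.85e-06), and FAN1, a crosslink nuclease, from 2491 to 1343 (-0.89, SE 0.058). RMI2, a BLM partner, rose from 383 to 772 (1.01, SE 0.093, adjusted p = 4.64e-05). SLX1B, a structure-specific nuclease subunit, had 0.88 (SE 0.13), but it has a near-identical copy and its counts are uncertain. FAAP100 and FAN1 differed little between siPVT1 libraries, with SDs of 10.4 and 6.38 normalized counts.

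Among 23 checkpoint and chromatin factors of the damage response, 9 were lower and 5 higher, with a median of -0.27. These were 39.1% and 21.7%, against 28.4% and 29.5% of all genes tested. Scaled by total count the counts were 12 and 4, and without siPVT1 replicate 3 they were 17 and 4. All genes tested had 36.2% and 23.6% by that scaling, and 33.4% and 30.9% without that library. SHLD3, a shieldin subunit that limits resection, had a log2 fold change of -1.97 (SE 0.17), and TIPIN, which keeps forks stable, had -1.52 (SE 0.22). CHEK2, the kinase downstream of ATM, rose from 199 ± 14.5 to 388 ± 18.5 normalized counts (SD, n = 3), a log2 fold change of 0.96 (SE 0.095), and the ubiquitin ligase RNF168 had 0.87 (SE 0.056). Each of these 4 passed the test.

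Other repair pathways had members on both sides, and the second pair of counts given for each is that with scaling by total count. Over all genes tested 28.4% were lower and 29.5% higher, and with that scaling 36.2% and 23.6%. In end joining 3 of 15 genes were lower and 3 higher (8 and 1, median -0.12), from POLM at -0.68 and NHEJ1 at -0.53 to XRCC5 at 0.29 and XRCC1, the ligase scaffold, at 1.25. In mismatch repair 4 of 7 were lower and 1 higher (4 and 0, median -0.40), from PMS2 at -1.11, which has pseudogene copies, and PMS1 at -0.63 to MLH3 at 0.23. In nucleotide excision repair 7 of 18 were lower and 5 higher (9 and 4, median -0.12), from GTF2H2 at -1.08, also copied in the genome, and XPA at -1.01 to ERCC6 at 0.79 and the nuclease ERCC5 at 1.87. In base excision repair 6 of 17 were lower and 3 higher (8 and 1, median -0.13), from the endonuclease APEX1 at -0.88 and OGG1 at -0.85 to MPG at 0.74 and NEIL1 at 0.80. All of these values are log2 fold changes that passed the test. Without siPVT1 replicate 3, 7 end joining (46.7%), 5 mismatch repair (71.4%), 8 nucleotide excision (44.4%) and 8 base excision genes (47.1%) were lower. Those higher numbered 2, 1, 5 and 2 in the same order. All genes tested then had 33.4% lower and 30.9% higher.

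Of 20 E2F and RB family genes and their complex partners, 5 were lower and 4 higher, with a median of -0.16. These counts, 25% and 20%, were below the shares of all genes tested, 28.4% and 29.5%. The lower ones numbered 9 (1 higher) when scaled by total count, 13 without siPVT1 replicate 3, and 3 without siControl replicate 1 or siPVT1 replicate 2. The lower share of all genes tested was 36.2%, 33.4%, 22.9% and 25.4% in these settings, in that order. E2F4, the main E2F of resting cells, fell from 1885 ± 15.1 to 755 ± 62.8 normalized counts (SD, n = 3), a log2 fold change of -1.32 (SE 0.075, adjusted p = 4.67e-06), and MYBL2 had -1.33 (SE 0.23, adjusted p = 0.00139). E2F6 had -0.53 (SE 0.16) and E2F7 had -0.56 (SE 0.082), while E2F5 had 0.47 (SE 0.083), RB1 had 0.19 (SE 0.057) and RBL2 had 0.38 (SE 0.14), and all of these passed. E2F1, an activator of repair genes, did not (-0.14, SE 0.22, adjusted p = 0.606), nor did E2F2 at 0.98 (SE 0.37), E2F3 at -0.072 (SE 0.14), E2F8 at 0.16 (SE 0.17), RBL1 at -0.59 (SE 0.23) or FOXM1 at -0.42 (SE 0.21).

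With all 6 libraries, cell cycle genes were divided by phase. Of 30 S phase markers 13 were lower and 1 higher, with a median of -0.40. Of 30 G2 and M phase markers 1 was lower and 27 higher, with a median of 0.70. All genes tested had 28.4% lower and 29.5% higher. The replication licensing factor MCM3 had a log2 fold change of -1.31 (SE 0.29) and the histone chaperone subunit CHAF1B had -1.03 (SE 0.31), while RRM2 had 0.34 (SE 0.11). NUF2 had 1.14 (SE 0.10), CENPF had 1.05 (SE 0.12) and PLK1 had -0.43 (SE 0.16). Without siPVT1 replicate 3, 25 of the 30 S phase markers were lower, against 33.4% of all genes tested. In that setting 27 G2 and M phase markers were higher, against 30.9%. The S phase count was 6 (20%) without siPVT1 replicate 2, 7 (23.3%) without siControl replicate 2 and 8 (26.7%) without siControl replicate 3. All genes tested then had 25.4%, 25.0% and 23.2% lower. The S phase share was thus below that of all genes without siPVT1 replicate 2 or siControl replicate 2. With 1 library left out, PLK1 passed only where that was siPVT1 replicate 3.

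All 20 hypoxia markers were higher in siPVT1, against 29.5% of all genes tested, with a median of 2.25. An earlier analysis of these data had already shown such genes higher, so this count is no independent evidence. ANGPTL4 rose from 153, 113 and 139 normalized counts to 2725, 1878 and 1435, and VEGFA from 1598, 1613 and 1593 to 4828, 4164 and 3714. CA9 was at 0.924 to 1.01 normalized counts in siControl and at 33.4, 40.4 and 17.9 in siPVT1. The marker that changed least was ALDOC (0.91, SE 0.25). Cells of both groups carried the same labels but for the siRNA, and no label gives an oxygen level.

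The summed level of a list, as a percentage of its siControl mean, shows these groups side by side. The 33 members stood at 73.0%, 79.7% and 94.1% in siPVT1 replicates 1, 2 and 3, and the 52 other recombination and Fanconi genes at 76.5%, 82.6% and 96.5%. The S phase markers stood at 62.5%, 72.6% and 103.5%. The members and the S phase markers were both lowest in replicate 1 and both nearest to siControl in replicate 3. So were mismatch repair (73.9%, 77.0% and 94.5%) and base excision repair genes (66.3%, 71.9% and 85.7%). The E2F and RB family list was too (76.6%, 82.1% and 94.3%). Checkpoint factors and end joining genes had the same order, reaching 111.5% and 111.2% in replicate 3. Nucleotide excision repair genes did not, at 99.7%, 98.0% and 98.6%. The G2 and M phase markers stood at 140.7%, 156.8% and 194.0% and the hypoxia markers at 432.6%, 368.9% and 323.8%. The hypoxia markers were highest in replicate 1, the library where the members were lowest. The endothelial markers (528.4%, 465.1% and 417.9%) and the epithelial markers (125.1%, 117.8% and 112.9%) were highest there too. The fibroblast and leukocyte markers were highest in replicate 2. The part of the cell cycle or of the hypoxia genes in the members' values was not tested.

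**Figure D4:**
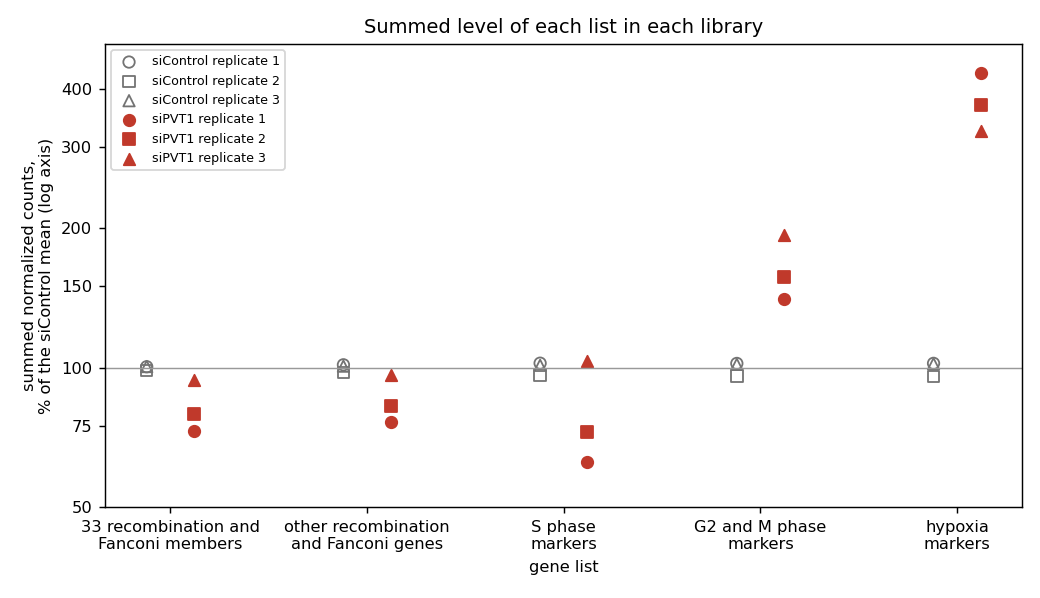
Summed normalized counts of 5 gene lists in each library, as a percentage of the siControl mean on a log axis (open grey, siControl; filled red, siPVT1; circle, square and triangle for replicates 1, 2 and 3). The members go from 73.0% to 94.1% of siControl in siPVT1 and the hypoxia markers from 323.8% to 432.6%.

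Set beside the decline known from low oxygen, 16 of 33 members fell here, BRCA1 among them, and 13 did not pass the test, BRCA2 and BARD1 among them. ATM, RAD51B, UBE2T and FANCD2 stood higher. By share, 48.5% of the members were lower and 12.1% higher, against 28.4% and 29.5% of all genes tested. Their median log2 fold change was -0.32, against 0.0014. Of those that did not pass, RAD51C, RAD51D, BLM, FANCB and FANCE were lower without siPVT1 replicate 3. The members thus leaned lower as a group, but not every member fell.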

How the data were processed

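RNA was sequenced from 6 SK-OV3 libraries, 3 siControl and 3 siPVT1, prepared with a KAPA mRNA kit. The authors aligned the reads to GENCODE on GRCh38.p13 and deposited a whole-number estimated count for each gene symbol, not normalized. The submitters' processing notes name bcl2fastq 2.20.0, STAR 2.7.3a, Salmon 0.14.1 and DESeq2 1.28.1. The strand setting is not given in the sources used here.

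From these counts, groups were compared with edgeR 4.0.16 (R 4.3.3), TMM normalization and its quasi-likelihood test, in the 19008 genes that reached 5 normalized counts in 3 or more libraries. A gene passed when its p-value, adjusted by Benjamini and Hochberg, was under 0.05, and was differentially expressed when its log2 fold change was also 1 or more in size. Standard errors are the size of the log2 fold change over the square root of the F statistic. The code was tested on simulated counts. The members and gene lists were chosen with earlier results of these data known. Genes named are PVT1, all members, tested head-to-head neighbours, the E2F and RB genes, FOXM1 and MYBL2, and in each other list the 2 lowest and 2 highest that passed. VEGFA, ALDOC and the cell type markers are named outside this rule. Gene positions and MANE Select transcripts came from GENCODE on GRCh38. Alternatives were DESeq2 1.42.0, other scalings and filters, a replicate block, a test against a 2-fold change and each library left out.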

Additional observations from a re-analysis of the deposited data

How the results depend on the processing

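The counts of 16 lower and 4 higher members and the median of -0.32 moved little with DESeq2, its size factors, edgeR's own filter or no filter (5 higher). Differentially expressed members numbered 3 lower when libraries were scaled by total count (RBBP8, FANCM and EXO1) and 0 in a test against a 2-fold change. Leaving out 1 library gave 0 to 4 such members, 12 to 21 lower, 4 to 6 higher and a median from -0.50 to -0.31, while 22.9% to 33.4% of all genes were lower and 24.8% to 30.9% higher. The count was 0 without siPVT1 replicate 1, 2 without siControl replicate 2 and 4 without siPVT1 replicate 3. No member was differentially expressed higher in any setting by either tool. Total count scaling shifted the median of all genes to -0.15 and gave 20 lower members, 3 higher and a median of -0.47, with 36.2% of all genes lower and 23.6% higher. It turned BRCA2 to -0.11, BARD1 to -0.052, RAD51AP1 to -0.050 and FANCG to -0.13, and FANCD2 no longer passed (0.33, adjusted p = 0.055). By the same scaling 18 S phase markers were lower and 21 G2 and M phase markers higher. Single libraries left out turned the sign of members that had not passed, within -0.19 to 0.22 for BRCA2, -0.15 to 0.24 for BARD1, -0.12 to 0.24 for RAD51AP1, -0.037 to 0.38 for RAD54L, -0.33 to 0.12 for BLM, -0.32 to 0.071 for FANCB and -0.18 to 0.11 for FANCG. The cause was not tested.

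With the replicate number as a block, 16 members were lower and 4 higher with a median of -0.34, and 1 was differentially expressed, so no call changed. Deviations of same-numbered libraries had correlations of -0.037, 0.029 and 0.0023, so no shared deviation was seen. This cannot show whether same-numbered libraries were handled together. Direction and side of the threshold were kept in 163 of 198 member values with a library left out and in 188 of 198 under the other alternatives. Members had from 107 to 7664 counts a library. The spread between siPVT1 libraries was over 2 times the counting error in 28 of 33 members, and not in PALB2, RAD50, RAD52, FANCC or FANCF.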
